A study of Mus musculus with 2 samples.

Results

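The immunoglobulin heavy chain, kappa light chain and lambda light chain loci were compared between B cells from wild-type and from Ccr7-deficient mice. Ccr7 is a chemokine receptor that guides lymphocytes into lymph nodes. Rows of the array were taken by position on the mm8 build, in windows around the 3 loci, or by a name that began with Igh, Igk or Igl. Of 211 such rows, 194 were kept because they named an immunoglobulin (148 rows) or an unnamed clone (46 rows). Of the other 17, 15 named another gene, and 2 carry the name Igkv14-111 but are described as mouse mammary tumor virus and lie outside the windows. A row is 1 distinct probe of 60 bases, and the array held 41174 of them. The 90 heavy chain rows spanned chr12:113611417-116447895, the 91 kappa rows chr6:67485647-70655977 and the 11 lambda rows chr16:18975296-19126761. The 2 other rows were of the surrogate light chain gene Igll1.

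B cells were sorted from peripheral lymph nodes of C57BL/6J mice (wild-type) and of strain B6.129P2(C)-Ccr7tm1Rfor/J (Ccr7 knock-out), and RNA was extracted without culture. The age of the mice, the sort markers and any treatment are not stated in the labels. The 12 sorted RNA samples, 6 per genotype, were combined in pools of 3, which gave 2 pools per genotype. Each of the 2 arrays carried 1 pool of each genotype, with the knock-out in Cy5 on array 1 and in Cy3 on array 2. All values below are therefore from n = 2 arrays, and they do not measure the spread between single samples.

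Antibody heavy chains are assembled from variable, diversity and joining segments joined to a constant region, and light chains from variable and joining segments and a kappa or lambda constant region. A naive B cell carries IgM and IgD. Activated B cells can exchange the constant region for IgG, IgE or IgA by class switch recombination. Along the mouse heavy chain locus the constant genes follow the variable segments in the order mu, delta, gamma, epsilon and alpha, and C57BL/6 mice carry the IgG2c gene. Secreted polymeric IgM and IgA hold the joining chain, Jchain.

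The rows that passed the test for a genotype difference lay in the gamma constant genes, and their probes are shown here with a related one. Capitals mark a run of 11 bases that 3 of these probes, for IgG1, IgG2c and a further gamma gene, share. The rows lie on the minus strand of chromosome 12 on mm8.
AK041235 (IgG1, chr12:113776860-113776919): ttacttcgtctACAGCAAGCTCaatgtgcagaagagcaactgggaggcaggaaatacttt
IGHG2C (IgG2c, chr12:113735270-113735329): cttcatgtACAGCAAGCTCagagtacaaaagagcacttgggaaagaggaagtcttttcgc
Ighg (gamma polypeptide, chr12:113754262-113754321): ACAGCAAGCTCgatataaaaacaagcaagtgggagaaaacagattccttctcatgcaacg
AK041235 (IgG1, the other row, chr12:113776999-113777058): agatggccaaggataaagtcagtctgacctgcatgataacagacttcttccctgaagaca
In ungapped alignment the first IgG1 probe matched the IgG2c probe at 43 of 57 overlapping bases (75.4%) and the Ighg probe at 34 of 49 (69.4%). The IgG2c and Ighg probes matched at 33 of 52 (63.5%). No gamma probe shared a run of 25 or more bases with any other row of the loci.

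Ratios are given as log2 of knock-out over wild-type, and a row was tested where at least 1 genotype was well above background on both arrays. Of the 194 rows, 183 were tested, and in 11 neither genotype was well above background on both arrays. With limma's moderated test and Benjamini-Hochberg adjustment over 25974 tested rows of the array, 3 immunoglobulin rows passed 0.05, and all 3 were higher in the knock-out. Over the whole array 31 rows passed (0.119%), 18 higher (0.0693%) and 13 lower. After median centring in place of loess normalization, 6 rows were higher and 8 lower. The 3 immunoglobulin rows were both IgG1 rows and 1 of the 2 IgG2c rows. The IgG1 row at chr12:113776860 and the IgG2c row entered the test through the knock-out alone, the genotype in which they were higher. Where both genotypes had to be above background on each array, 1 immunoglobulin row passed, the other IgG1 row.

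The IgG1 row at chr12:113776860 had a normalized log2 intensity of 6.59 in the wild-type pool of array 1 and 6.88 in that of array 2. The knock-out pools gave 8.53 and 8.49. Both knock-out pools lay above both wild-type pools. Array 1 gave a log2 ratio of 1.94 and array 2 one of 1.61, and their mean was 1.78 ± 0.14 (SE, n = 2), or 3.42-fold higher in the knock-out, at a limma adjusted p of 0.0118. The wild-type signal was well above background on array 2 only, so the size of the ratio rests on a dim channel. The scanner program's ratios, which the deposited value table repeats for this row, were larger at 3.71 and 2.72.

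The other IgG1 row gave 6.77 and 6.83 in the wild-type pools and 8.34 and 8.32 in the knock-out pools, on arrays 1 and 2. Its log2 ratios were 1.57 and 1.49, and their mean was 1.53 ± 0.13 (SE, n = 2), 2.89-fold, with a limma adjusted p of 0.0130. All 4 channels were well above background, and the scanner program and the deposited table gave 2.65 and 2.54. X87228, an immunoglobulin heavy chain clone just 3′ of the first IgG1 row, gave ratios of 1.05 and 0.66 and did not pass (limma adjusted p = 0.130). It passed with an intensity trend and robust prior, and also in a fit that omitted all flagged rows of the low-gain scan.

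The first IgG2c row gave 6.36 and 7.56 in the wild-type pools and 7.40 and 8.81 in the knock-out pools. The knock-out was higher within each array, while the wild-type pool of array 2 lay above the knock-out pool of array 1. Its log2 ratios were 1.04 and 1.25, and their mean was 1.15 ± 0.14 (SE, n = 2), 2.21-fold, with a limma adjusted p of 0.0347. Its wild-type signal, too, was well above background on array 2 only, and the scanner program and the deposited table gave larger ratios of 2.67 and 1.81. The second IgG2c row was also higher on both arrays, at 0.20 and 0.61, and did not pass (limma adjusted p = 0.436). The Ighg row at chr12:113754262, between the IgG2c and IgG1 rows, gave 8.59 and 8.90 in the wild-type pools and 8.82 and 10.05 in the knock-out pools. Its ratios of 0.23 and 1.15 did not pass (limma adjusted p = 0.334), and the knock-out pool of array 2 stood above the other 3 pools.

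All 6 rows of the gamma genes, with X87228 included by its position alone, were thus higher in the knock-out on both arrays, and 4 of them by at least 1.5-fold on both. These 4 were the only immunoglobulin rows past that size, against 0.254% of all tested rows. The median log2 ratio of the 6 was 1.00. It was 0.64 without normalization, 0.86 after median centring, and 1.68 both by the scanner program's ratio and in the deposited value table, and all 6 rows were above 0 in each. The calls were less firm. No immunoglobulin row passed without background subtraction (lowest adjusted p = 0.0708), with the scanner program's ratio (0.140), in the deposited value table (0.0829), without within-array normalization (0.955) or with the channels fitted separately (1.00).

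**Figure D1:**
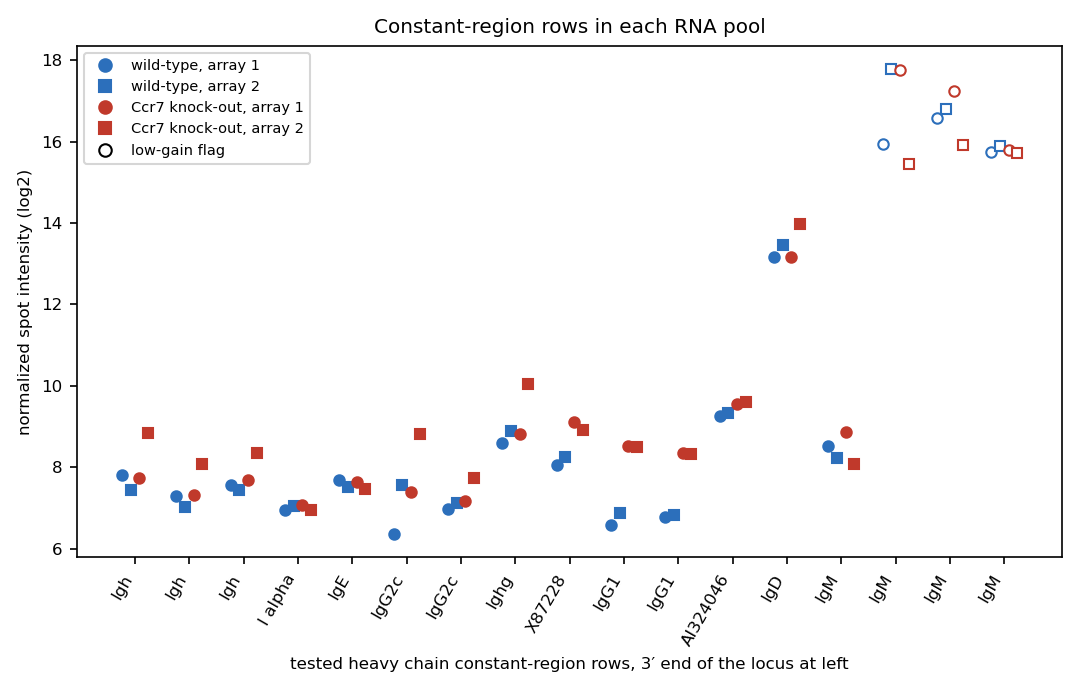
Normalized log2 spot intensity of the 17 tested constant-region rows of the heavy chain locus in each of the 4 RNA pools, ordered from the 3′ end of the locus; circles are array 1, squares array 2, blue wild-type, red Ccr7 knock-out, and open symbols rows with a low-gain flag. In both IgG1 rows the 2 red symbols lie above the 2 blue ones, and in the 3 Igh rows at left only the red square stands apart.

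The remaining constant-region rows did not pass the test, and several differed on 1 array only. The 3 rows named Igh at the 3′ end of the constant genes, beside a row for the I alpha transcript, carry no isotype in the file. In the known gene order the alpha gene is the last one. The probe of the middle row is shown because these rows separate the 2 knock-out pools.
Igh (chr12:113706720-113706779, minus strand): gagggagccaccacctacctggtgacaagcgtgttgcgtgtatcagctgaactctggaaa
This row gave 7.28 and 7.02 in the wild-type pools, and 7.31 and 8.09 in the knock-out pools. Across the 3 rows the log2 ratio was between -0.08 and 0.12 on array 1 and between 0.90 and 1.40 on array 2, with limma adjusted p between 0.435 and 0.517. Only the knock-out pool of array 2 was high. The I alpha row, a germline transcript of the alpha gene, gave 0.12 and -0.08. The tested IgE row gave -0.04 and -0.05, and the other IgE row was not well above background in any of the 4 channels.

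IgD, which resting B cells carry with IgM, gave -0.01 on array 1 and 0.51 on array 2 (limma adjusted p = 0.705). AI324046, an unnamed clone between the IgG1 and IgD rows, gave 0.31 and 0.29 (limma adjusted p = 0.517). For IgM, 1 of the 4 rows was free of the low-gain flag, and its ratios of 0.36 and -0.15 had opposite signs. It was far dimmer than the flagged IgM rows, with log2 intensities of 8.07 to 8.88 against 15.44 to 17.79. A further 2 rows carry the name Ighg and 1 the name Igh-6 (IgM) but lie among variable segments. The Ighg rows, of which 1 is described as the segment IGHV5-17, gave 0.69 and 0.08, and 0.26 and 0.25. The Igh-6 row in the kappa window gave 0.21 and 0.31.

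The brightest rows were read from a second scan at lower gain and scaled up, and each such channel carries a flag. Of the 194 rows, 37 had the flag in at least 1 channel: 3 in the heavy chain locus, 26 in the kappa locus and 8 in the lambda locus. None of the 37 passed limma's test, and at an unadjusted p under 0.05 there were 7 higher in the knock-out and 0 lower, marks met by 6% and 2.57% of all tested rows with the flag. Of the 37, 12 had it in all 4 channels, and in 9 of the 12 the sign followed the dye: the Cy5 channel was brighter on both arrays, so the knock-out was higher on array 1 and the wild-type on array 2. None was brighter in Cy3 on both. Over the array, 63.5% of rows with the flag in all 4 channels were brighter in Cy5 on both arrays.

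The 3 flagged IgM rows were of this kind. One Igh-6 row gave 15.94 (wild-type) and 17.75 (knock-out) on array 1, and 17.79 (wild-type) and 15.44 (knock-out) on array 2. Its log2 ratios were 1.82 and -2.35. The deposited value table, whose method for such spots is not stated in the headers, holds 0.17 and -0.83 for it. The IGHM row gave 0.66 and -0.90 (-0.70 and -0.31 in the deposited table), and the other Igh-6 row, the mean of 10 spots, gave 0.05 and -0.16. AF152371, a kappa light chain of a monoclonal antibody, gave 1.28 and -1.83. The lambda constant rows IGLC3 and 2010309G21Rik (described as J and C regions of lambda-2) gave 0.78 and -1.02, and 0.56 and -0.92. In the deposited table the other Igh-6 row stands at -0.22 and -0.04, AF152371 at -0.03 and -0.73, IGLC3 at -0.48 and 0.16, and 2010309G21Rik at -0.48 and -0.21. Of the 9 rows whose sign followed the dye, that table has 4 lower in the knock-out on both arrays, 5 with opposite signs and 0 higher on both, and the scanner program's ratio has 3, 6 and 0. Whether these rows had a direction thus depended on the values used.

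Among all 37 flagged rows, 25 were higher in the knock-out on both arrays, 1 was lower on both and 11 had opposite signs. Of all 1832 tested rows with the flag over the array, 451 were higher on both arrays, 401 were lower on both and 53.5% had opposite signs. The 25 rows with the flag in only some channels held 2 of the 11. The 146 tested rows without the flag held 91 that were higher on both arrays, 22 that were lower on both and 33 with opposite signs. Of all tested rows without the flag, 25.3% were higher on both arrays. Across rows, which share pools and often sequence, the ratios of the 2 arrays had a Pearson r of 0.58 without the flag (n = 146) and -0.84 with it (n = 37). Without the 6 gamma rows the former was 0.27 (n = 140).

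**Figure D2:**
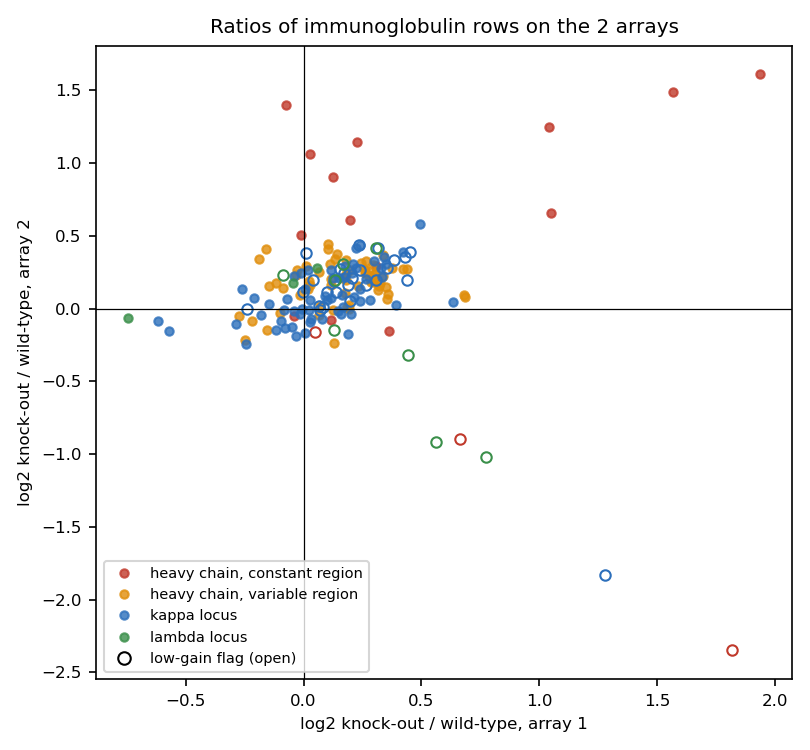
Log2 knock-out over wild-type on array 1 (horizontal) against array 2 (vertical) for the tested rows of the 3 loci; open symbols carry a low-gain flag. The gamma rows lie at upper right, the 3 Igh rows of the 3′ end at upper left near 0 on array 1, and the brightest IgM, kappa and lambda rows at lower right, down to 1.82 and -2.35.

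The heavy chain variable region was represented by 70 rows, of which 65 were tested, and none carried the low-gain flag. None passed the test (lowest limma adjusted p = 0.436), and 4 were higher in the knock-out at an unadjusted p under 0.05, a mark that 3.7% of all tested rows met in that direction. Ratios were small: 48 rows were higher in the knock-out on both arrays, 5 lower on both, and 12 of opposite sign. The mean log2 ratio ran from -0.23 (Ighv1-66) to 0.39 (IGHV5S24), with a median of 0.21 against -0.01 for all tested rows. The sign of that median depended on the scaling: it was -0.07 after median centring and -0.29 without normalization, where the median of all tested rows was -0.16 and -0.38. Set against rows as bright (mean log2 intensity between 10 and 13, no flag), the 33 variable rows in that range lay 0.24 to 0.27 higher in the median under the 6 ways of processing tried, and 0.31 and 0.24 higher on arrays 1 and 2 alone. These 6 were not independent checks. Median centring and no normalization give the same difference by construction. Without the flag, the deposited table repeats the scanner program's ratio.

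Many variable rows are not independent measurements, because their probes share sequence. Of the 70, 36 shared a run of at least 25 bases with another row of the loci. The pair with the longest run is shown with that run of 43 bases in capitals.
IGHV5-17 (chr12:114307146-114307205, minus strand): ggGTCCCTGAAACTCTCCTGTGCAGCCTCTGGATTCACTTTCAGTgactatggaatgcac
IGHV5S24 (chr12:114210252-114210311, minus strand): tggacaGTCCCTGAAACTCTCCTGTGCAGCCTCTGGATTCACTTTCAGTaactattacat
Their log2 ratios were nearly the same, at 0.69 and 0.08 for IGHV5-17 and 0.68 and 0.09 for IGHV5S24. Both rows were higher mainly on array 1. Over the 67 pairs in the 3 loci that share such a run, the mean ratios of the 2 rows differed by a median of 0.03 and by at most 0.31. The largest set of rows joined by such runs held 17 rows, 16 of them heavy chain variable rows. All 17 were higher in the knock-out on both arrays, with mean log2 ratios from 0.09 to 0.30, and none passed. Of the segment families with at least 3 tested rows, IGHV1 held 13 rows with a median of 0.15, and 10 of the 13 were higher on both arrays.

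**Figure D3:**
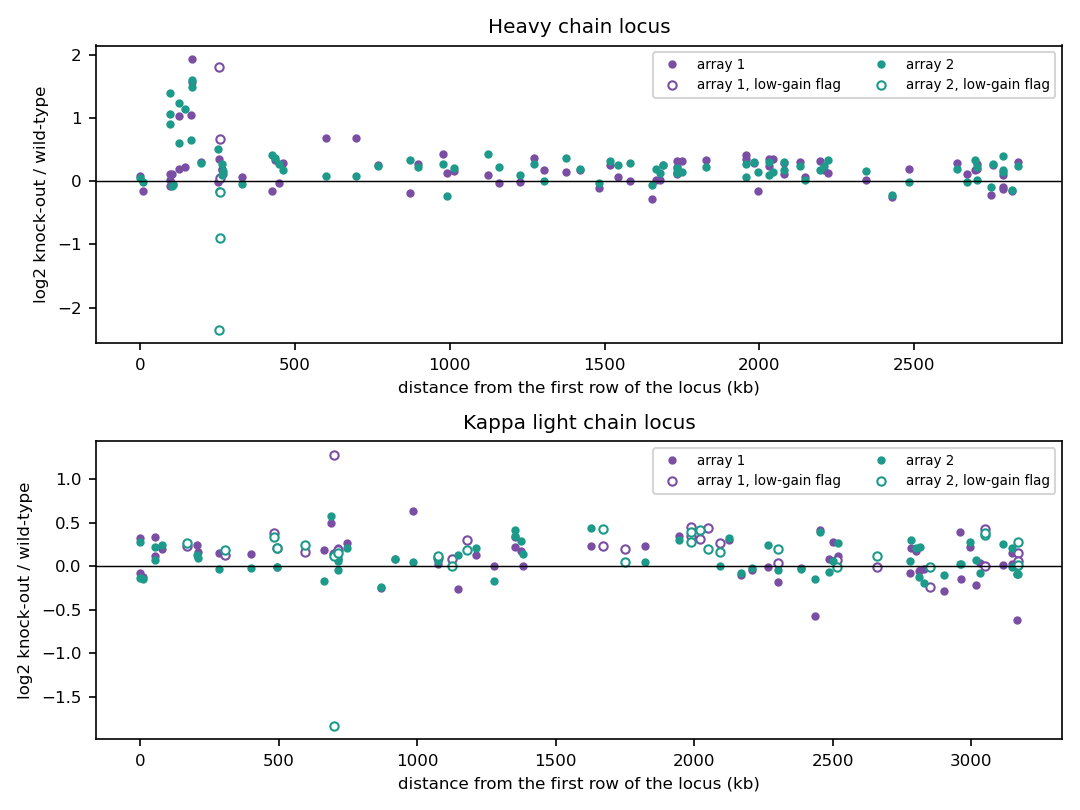
Log2 knock-out over wild-type on each array along the heavy chain locus (top) and the kappa locus (bottom), against distance in kb from the first row of the locus; open symbols carry a low-gain flag. In the heavy chain locus ratios near or above 1 lie at the constant genes, between 95.2 and 165.6 kb, apart from the flagged IgM rows beside them, while the variable rows beyond stay within 0.69 of 0.

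The kappa locus had 87 tested rows of 91, and none passed the test (lowest limma adjusted p = 0.255). At an unadjusted p under 0.05, 13 were higher and 1 lower, against 3.7% and 6.13% of all tested rows. No row of the file named the kappa constant gene itself. The median log2 ratio was 0.12 over all 87 rows, 0.09 over the 61 without the low-gain flag and 0.20 over the 26 with it. It too changed sign with the scaling, to -0.18 after median centring and -0.40 without normalization. There the median of all tested rows was -0.16 and -0.38, so the kappa median lay slightly below it. Of the 61 rows without the flag, 32 were higher on both arrays, 14 lower on both and 15 of opposite sign. Of the 26 with it, 22 were higher on both arrays, 1 lower on both and 3 of opposite sign. Over the array, 25.3% of tested rows without the flag and 451 of 1832 with it were higher on both arrays. In the range of mean log2 intensity between 10 and 13, the 37 kappa rows without the flag lay 0.07 to 0.11 above rows as bright in the median. This was under the same 6 ways of processing, which were not independent checks.

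No single kappa row reached a mean difference of 1.5-fold. The largest mean ratio without the flag was that of ENSMUST00000067474, an unnamed transcript model, at 0.50 and 0.58 (mean 0.54 ± 0.13 SE, n = 2, limma adjusted p = 0.255). IGKV1-35 gave 0.42 and 0.39, and IGKV4-86 gave 0.34 and 0.36. U29595 was higher on array 1 only, with 0.64 and 0.04. IGKV18-36 and the cDNA BG966302 went the other way, with -0.57 and -0.15, and -0.62 and -0.09. Among flagged rows, Gm1418 (0.45 and 0.39), BC055911 (0.43 and 0.36), IGKV17-121 (0.38 and 0.34) and Gm189 (0.31 and 0.41) had the largest mean ratios of the same sign. Apart from AF152371, the widest gaps between opposite signs were in IGKV10-94 (-0.26 and 0.14) and EG381776 (0.19 and -0.17). By family, the 5 IGKV4 rows and the 3 IGKV1 rows were all higher on both arrays, with medians of 0.34 and 0.28, while the medians of the 3 rows each of IGKV3, IGKV8 and IGKV10 were -0.02, 0.00 and 0.04. The families share sequence, and the difference between them was not tested.

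In the lambda locus all 11 rows were tested and none passed (lowest limma adjusted p = 0.430). At an unadjusted p under 0.05, 1 was higher in the knock-out, a mark met by 3.7% of all tested rows. The median log2 ratio was 0.07, both over the 3 rows without the low-gain flag and over the 8 with it, and -0.27 after median centring or -0.48 without normalization. Among the rows named Igl-V1, the widest gap between opposite signs was 0.44 and -0.32 (flagged). Among the flagged Igl-V1 rows, the largest mean of one sign was 0.36 (0.31 and 0.42), followed by 0.24 (0.17 and 0.31) and 0.16 (0.13 and 0.20). The largest without the flag was 0.17 (0.06 and 0.28). AK079984, an unclassified clone at the far end of the window, gave -0.75 and -0.06. The surrogate light chain gene Igll1, which pairs with mu heavy chains in precursor B cells, had 1 tested row at -0.14 and 0.17, and its other row was not well above background in any of the 4 channels.

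Over the variable segments the difference between the arrays was larger, in the median, than that between the genotypes. In 57 of 65 tested heavy chain variable rows the log2 intensity was at least 0.5 higher on array 2 than on array 1 in both genotypes. The median difference was 0.86 in wild-type and 0.85 in knock-out. Over the array 6.3% of tested rows without the low-gain flag differed this way, and the median over all tested rows was -0.02 in each genotype. Kappa rows showed it in 53 of 61 without the flag and in 25 of 26 with it, with medians of 1.12 and 1.14 over both. Lambda rows showed it in 6 of 11.

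Constant-region rows did not share this difference, since 1 of 17 was at least 0.5 brighter on array 2 in both genotypes. The medians there were 0.13 in wild-type and -0.02 in knock-out, or 0.075 and 0.30 without the 3 flagged rows. The exception was the IgG2c row that passed, with 1.20 in wild-type and 1.41 in knock-out. For the Igh row at chr12:113706720 array 2 minus array 1 was -0.26 in wild-type and 0.78 in knock-out. Dyes were swapped between the arrays and the pools differed, so array, dye and pool cannot be told apart for a single channel. Of the unnamed clones, 23 of 27 tested in the kappa window and 5 of 8 in the heavy chain variable region were brighter on array 2 in both genotypes.

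**Figure D4:**
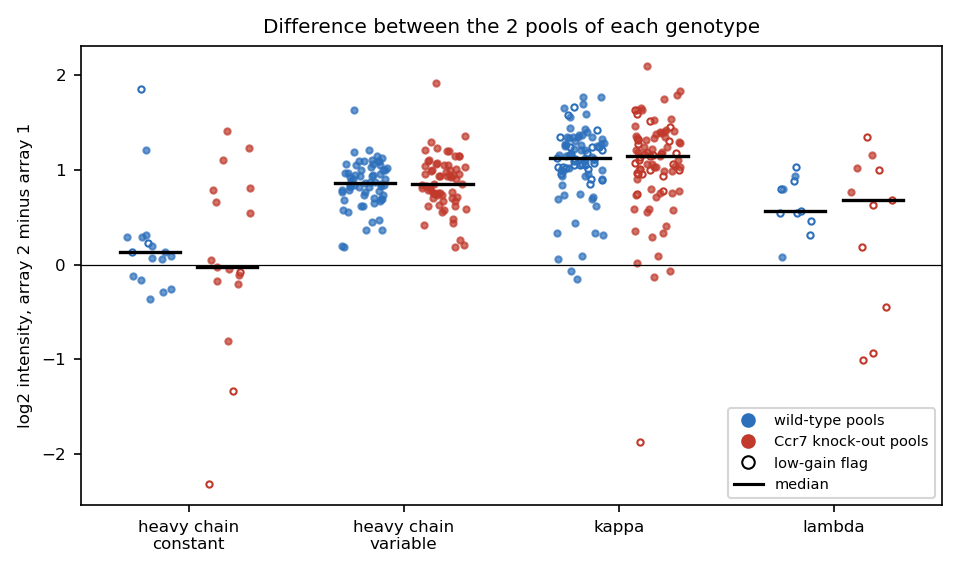
Difference in normalized log2 intensity between array 2 and array 1, for the wild-type pools (blue) and the knock-out pools (red), for tested rows of each part of the loci; black bars are medians and open symbols carry a low-gain flag. Variable and kappa rows lie mostly near 1 in both genotypes (medians 0.85 to 1.14), and the constant rows lie around 0.

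A short run of letters was found in probes of both the named rows and the unnamed clones. TANTACTGT, searched on both strands, can encode the tyrosine, tyrosine and cysteine found at the end of variable segments, which is background knowledge. Among heavy chain variable probes it was present in 13 of 59 that name an immunoglobulin (22.0%) and in 2 of 11 unnamed clones (18.2%). Among kappa probes it was present in 12 of 60 (20.0%) and 5 of 31 (16.1%), against 150 of 41174 probes of the array (0.364%). No probe of the heavy chain constant region or of the lambda locus held these letters. A heavy chain and a kappa probe are shown with the match in capitals.
AY172399 (heavy chain, chr12:113876361-113876420, minus strand): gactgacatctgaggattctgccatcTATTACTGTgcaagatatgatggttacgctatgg
IGKV18-36 (kappa, chr6:69922066-69922125, minus strand): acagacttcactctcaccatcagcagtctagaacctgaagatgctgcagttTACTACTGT
AY172399 gave ratios of 0.17 and 0.11, and IGKV18-36 is the kappa segment named above as lower on both arrays.

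At the edges of the windows ratios were small. The first row of the heavy chain window, 4930427A07Rik, gave 0.09 and 0.05, and its last row, IGHV1S12, gave 0.30 and 0.25. Tmem121, a neighbouring gene inside the window that is no immunoglobulin, gave 0.69 and 0.20 (limma adjusted p = 0.408), and Adam6, which lies among the segments, gave -0.12 and -0.13.

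Of 24 genes for the assembly, transcription and secretion of immunoglobulin, 22 were tested, each by its tested row with the highest mean intensity. One passed the test, and it was higher in the knock-out. On both arrays 7 were higher and 6 lower, with a median log2 ratio of -0.01, the same as that of all tested rows. Of all 25974 tested rows, 6554 were higher on both arrays and 7799 lower on both. Rag1 and Rag2, the recombinase genes, were too dim to test. The gene that passed was Jchain, with 8.44 and 9.62 in the wild-type pools and 10.34 and 11.34 in the knock-out pools. The knock-out was higher within each array by 1.89 and 1.72, a mean of 1.81 ± 0.14 (SE, n = 2) or 3.50-fold, at a limma adjusted p of 0.00851. Its other row gave 2.01 and 1.99.

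Xbp1, a transcription factor of antibody secretion, gave 0.55 and 0.85 (limma adjusted p = 0.184). Pou2af1, a coactivator of octamer-dependent immunoglobulin transcription, gave 1.15 and -0.01 with a low-gain flag. Pigr, the transport receptor of polymeric immunoglobulin, gave -0.44 and -0.29, and Vpreb3, a partner of light chain assembly, gave -0.21 and -0.46 with a flag. Ell2, an elongation factor that favours the secreted form of heavy chain mRNA, gave 0.39 and 0.22, and its dimmer row gave -0.14 and -0.28. Cd79b, which carries the signal of surface immunoglobulin, gave 1.45 and -1.52 with a flag, so that its sign followed the dye like that of the flagged IgM rows.

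**Figure D5:**
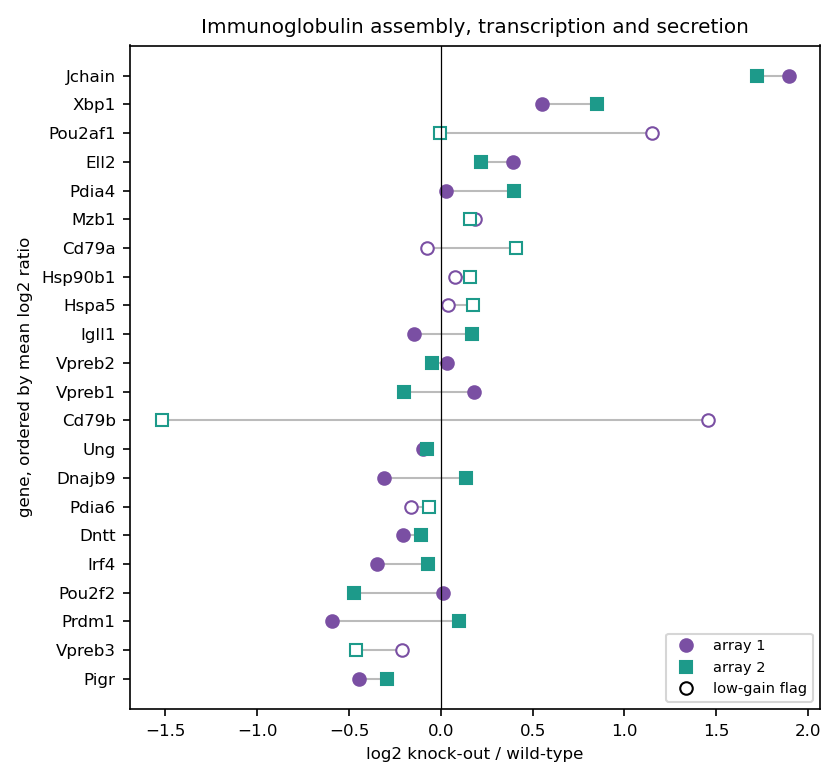
Log2 knock-out over wild-type on array 1 (circles) and array 2 (squares) for the 22 tested genes of immunoglobulin assembly, transcription and secretion, ordered by their mean; open symbols carry a low-gain flag. Jchain lies at 1.89 and 1.72, and Cd79b at 1.45 and -1.52.

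The identity and quality of the samples were checked once for the results above. Ccr7 itself was lower in the knock-out, at -1.11 and -0.74 (limma adjusted p = 0.104), with the place of its probe relative to the deletion not known here. All 8 B cell markers were tested, 7 of them with a low-gain flag. Their summed linear intensity was 317000 and 549000 in wild-type and 552000 and 368000 in knock-out, and none passed. T cell markers summed to 2400 and 2390 in wild-type and 2180 and 1790 in knock-out (8 of 8 tested, none passed). Of the 8 myeloid and dendritic cell markers 7 were tested and none passed, with sums of 5020 and 9360 in wild-type and 9330 and 6160 in knock-out, and Siglech was too dim. Between 58.4% and 68.8% of spots in a channel were well above background, and no spot was saturated.

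Markers of plasma cells and germinal centre B cells are given beside the gamma rows. Of 10 plasma cell markers 9 were tested, and Tnfrsf17 was too dim. Besides Jchain none passed. Over the array, 6554 of 25974 tested rows were higher in the knock-out on both arrays, and 7799 were lower on both. Of the 9, 4 were higher on both arrays: Jchain, Xbp1, Slamf7 (0.33 and 0.30) and Mzb1 (0.19 and 0.16, flagged). Another 3 were lower on both: Sdc1 (-0.13 and -1.15), Fkbp11 (-0.53 and -0.65) and Irf4 (-0.35 and -0.07). Prdm1 (-0.59 and 0.10) and Derl3 (0.09 and -0.315) had opposite signs. The mean log2 ratios of Prdm1 and Sdc1 were -0.25 and -0.64. The summed linear intensity of the 9 was 50400 and 50500 in wild-type and 57500 and 60200 in knock-out. The brightest of them, Mzb1, has a low-gain flag and log2 intensities of 15.13 to 15.39, so it weighs most in these sums. All 5 germinal centre markers were tested and none passed. All but Bcl6 (4 of 5: Mki67, Rgs13, S1pr2 and Gcsam) were higher in the knock-out on both arrays. The median log2 ratio of the 5 was 0.44. Each gene was read by its brightest tested row. The dimmer row of S1pr2 gave -0.01 and -0.03, and that of Mki67 0.54 and 0.421. The sums of the 5 markers, in which Bcl6 has a low-gain flag, were 22800 and 35200 in wild-type and 24800 and 31100 in knock-out. More cells of such a type and more RNA per cell cannot be told apart in pooled samples, and the part of these markers in the gamma result was not tested.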

How the data were processed

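The 2 dual-colour arrays were read by the authors with Agilent Feature Extraction 9.5.3.1, per the submitters' processing notes. Per the file headers, the deposited intensity values are spot means and local background medians. The files also hold that program's log10 ratio, per the file headers background-subtracted and dye-normalized. The deposited table of log2 ratios equalled it, turned to knock-out over wild-type, within 0.001 at 42512 and 42515 of 43379 spots. All 867 and 864 others carried the low-gain flag.

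Intensities were corrected with normexp (offset 50) and loess (span 0.3, 4 iterations, control spots at weight 0), using R 4.3.3 and limma 3.58.1. The offset shrinks ratios of dim rows. Outlier-flagged spots were dropped and spots of 1 probe averaged. Pool intensities were scaled between arrays by Aquantile. A row was tested if either genotype was well above background on both arrays. Ratios were fitted with dye orientation as +1 or -1 (1 residual and 6.98 prior degrees of freedom), and p-values are two-sided, adjusted over all tested rows. Tested on simulated data, with independent noise from the fitted prior and no dye effect or low-gain rows, the fit recovered known changes.

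The named rows were each locus's constant-region and surrogate rows, rows past the threshold, up to 6 largest same-sign ratios without and 4 with the low-gain flag, and up to 3 widest opposite-sign gaps. From the pathway list these were genes past the threshold and 6 others by size. One gene of the pathway and germinal centre lists is not reported here and is left out of their counts. The members and lists were chosen with earlier results of these data known, and the shared-run length, the intensity range and the motif after values were seen. Cd79b, the edge rows and the sequence examples were named outside that rule, after their values were seen. Alternatives changed the background correction, the scaling, the filter on dim rows, the low-gain rows, the prior variance and the arrays used, and the closing section gives their effect.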

Additional observations from a re-analysis of the deposited data

How the results depend on the processing

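The number of immunoglobulin rows past the threshold, 3 here, was 0 without background subtraction, with the scanner program's ratio, without within-array normalization, in the deposited value table and with channels fitted separately (no replicate block). It was 1 after median centring, the IgG1 row at chr12:113776860. It was also 1, but the other IgG1 row, where both genotypes had to be above background on each array. The count was 4 under the trend and robust prior and without rows scaled up from the low-gain scan, and 3 with no filter on dim rows or only rows that name an immunoglobulin. Over the whole array the 31 calls became 3 without background subtraction, 14 after median centring, 124 with an intensity trend and robust prior, 118 without scaled-up rows, 18 with 1 row per gene, and 0 with the scanner program's ratio, without normalization, in the deposited table and with separate channels.

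The heavy chain median of 0.22 became 0.25 with the scanner program's ratio and in the deposited table, -0.056 after median centring, -0.28 without normalization and 0.20 with no filter. The kappa median of 0.12 became 0.15 with the scanner program's ratio, -0.18 after median centring, -0.40 without normalization and 0.089 without scaled-up rows. The lambda median of 0.07 became -0.27 after median centring and -0.48 without normalization. Under the same scalings, in that order, the median of all tested rows was -0.16 and -0.38. Leaving out 1 array each gave medians of 0.18 to 0.20 (heavy chain), 0.12 to 0.15 (kappa) and 0.13 to 0.18 (lambda), with no test. Of 40 named rows, 20 changed sign without normalization, 8 after median centring, 2 in the deposited table, 2 with the scanner program's ratio and 1 without background subtraction. None of these was a gamma row. The median of the 6 gamma rows, 1.00, became 0.64 without normalization and 1.68 with the scanner program's ratio and in the deposited table. Each array ratio already pairs 1 pool of each genotype, so a further block could not be fitted. The cause of the changes was not tested. Low wild-type signal on array 1 limits the ratios of the first IgG1 row and the first IgG2c row.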
